A study of Oryctolagus cuniculus with 9 samples.

Results

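Zinc finger genes of the ZNF and ZBTB name families were followed in cultured HA-VSMC cells kept with or without β-estradiol. The members are the genes whose symbol starts with ZNF or ZBTB and a digit and whose mean level over the 9 libraries was at least 5 CPM, a count scaled to the library total. This gave 143 of the 19291 genes in the count table, 114 named ZNF and 29 named ZBTB. A further 62 genes of these names lay under the minimum. Members were chosen by symbol and by this mean level, so the levels are a description and are not tested. Just inside the minimum were ZNF329 (6.03 CPM), ZBTB3 (6.13 CPM) and ZNF341 (6.18 CPM), and just outside it ZNF239 (4.88 CPM), ZNF331 (4.80 CPM) and ZNF2 (4.66 CPM).

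The 9 libraries fall into 3 groups of 3, namely HA-VSMC cells with β-estradiol at 50 nM, with β-estradiol at 250 nM, and controls. β-Estradiol is the main ovarian estrogen, and cells were harvested after 48 h in RPMI medium with fetal bovine serum. The solvent was DMSO with sodium hydrogen carbonate, and the labels do not say whether the controls received it. The treatment protocol states the higher concentration only. The control libraries also carry the treatment tag estrogen, with WT as its concentration. The stated species is the rabbit (Oryctolagus cuniculus), which was not checked. All groups share 1 cell line, and the labels do not state that replicates came from separate cultures. The p-values therefore reflect the spread among these 9 libraries alone, which may be technical.

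Most ZNF proteins bind DNA through tandem C2H2 zinc fingers, in which paired cysteines and histidines hold a zinc ion and each finger reads a few bases. Many also carry a KRAB domain, which recruits the co-repressor TRIM28 and the histone methyltransferase SETDB1 and so silences transposable elements and other targets. ZBTB proteins join the fingers to a BTB/POZ domain, which forms dimers and binds co-repressors such as NCOR1 and BCOR. Roles named here are known from human or mouse. The symbol is not a guarantee of function. ZBTB8OS met the rule but encodes archease, a cofactor of the tRNA ligase, and several ZNF proteins bind RNA or ribosomes and not DNA. No sequence was available for the members, so none is shown.

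Library totals were 54718407 to 72274464 deposited counts, with roughly 4 counts per fragment, and 12324 genes were tested, all 143 members among them. Of 8 smooth muscle markers measured 5 reached 5 CPM. Their summed level was 5218 to 5664 CPM at 50 nM, 5281 to 5492 CPM at 250 nM and 5387 to 5619 CPM in controls. ACTA2, CALD1 and MYL9 were high, while LMOD1 and MYOCD had means of 2.19 and 1.41 CPM and DES was at 0 in every library. CNN1 and TAGLN had no row under these symbols in the count table. Endothelial markers summed to at most 1.27 CPM and epithelial markers to at most 0.20 CPM in any library, with KDR and EPCAM at 0. Fibroblast markers summed to 628 to 798 CPM over the libraries, and 4 of 6 reached 5 CPM. Of 5 leukocyte markers only LCP1 reached 5 CPM. As these are bulk samples, fewer cells of a type and less RNA per cell cannot be told apart. The share of counts on ribosomal protein genes was 1.32% to 1.54% at 50 nM, 1.34% to 1.49% at 250 nM and 1.28% to 1.59% in controls, and in each group the library numbered 2 had the lowest share.

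Per unit of length, the members spanned a wide range of levels. Over the 9 libraries their mean deposited FPKM (fragments scaled by gene length and library depth) ran from 0.97 to 58.7, with a median of 7.04. The highest was ZNF207, a spindle protein that carries the checkpoint protein BUB3, with 52.5 to 67.5 FPKM. Next came ZNF503, a developmental transcriptional regulator, with 40.8 to 49.6 FPKM, then ZNF384 with 27.7 to 32.4 FPKM and ZNF326, part of a complex that couples splicing to RNA polymerase II, with 24.9 to 28.7 FPKM. The range of ZNF503 did not meet that of ZNF207 or of ZNF384, while ZNF384 and ZNF326 overlapped. Next in order were ZNF217 (24.5 to 29.8 FPKM) and ZNF214 (23.9 to 30.3 FPKM), which also overlapped with ZNF384 and ZNF326. By CPM, which is not scaled by length, the median member had a mean of 17.7 and 23 members reached 50.

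The comparison of 50 nM estradiol with control asks which zinc finger genes differed at the lower concentration. Of the 143 members, 9 fell and 4 rose (edgeR quasi-likelihood test, Benjamini-Hochberg adjusted p under 0.05 over all 12324 genes). That is 6.29% lower and 2.80% higher, beside 1.70% lower and 1.55% higher over all genes tested, and 2.01% and 1.90% over the 9001 other genes with a mean of at least 5 CPM. In either direction, 13 members passed (9.09%), beside 3.25% of all genes. At an unadjusted p under 0.05, 32 were lower (22.4%) and 13 higher (9.09%), beside 8.17% and 7.44% of all genes. The changes were small: the deepest fall was 1.57-fold and the largest rise 1.42-fold. Those that fell were ZNF862, ZNF182, ZBTB9, ZNF646, ZNF48, ZNF112, ZBTB7B, ZBTB11 and ZNF768. Those that rose were ZNF26, ZNF697, ZNF512B and ZNF202.

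Levels below are CPM scaled with TMM factors, one value per library in the order of the replicate numbers, and log2 fold changes are estimate ± SE. ZNF862 had 8.06, 9.39 and 8.39 CPM at 50 nM, against 13.8, 13.4 and 13.4 CPM in controls (log2 fold change -0.65 ± 0.10, edgeR adjusted p = 0.00123). All 3 treated libraries lay below all 3 controls, and the controls differed from each other by far less than from the treated libraries. ZNF48 had 31.7, 32.7 and 32.5 CPM at 50 nM, against 45.3, 43.2 and 44.8 CPM in controls (-0.46 ± 0.07, edgeR adjusted p = 0.000943), again without overlap. ZNF646 had 24.8, 25.1 and 28.2 CPM at 50 nM, against 37.1, 37.4 and 33.7 CPM in controls (-0.47 ± 0.08, edgeR adjusted p = 0.00303). Its highest treated library stayed below its lowest control. ZNF182, a KRAB zinc finger gene, had 7.51, 5.996 and 7.90 CPM, against 9.45, 11.02 and 10.98 CPM in controls (-0.56 ± 0.13, edgeR adjusted p = 0.0239). ZNF112, another KRAB gene, had 15.1, 13.6 and 16.001 CPM, against 18.6, 19.5 and 21.4 CPM in controls (-0.41 ± 0.09, edgeR adjusted p = 0.0159). ZNF768, which binds sequences derived from MIR repeats, had 19.8, 20.3 and 18.1 CPM, against 24.3, 23.9 and 22.9 CPM in controls (-0.29 ± 0.07, edgeR adjusted p = 0.0473), the change closest to the threshold among the 13. In all 3 genes the groups did not overlap.

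The 29 ZBTB members include ZBTB8OS, which encodes archease. Among them, 3 fell (10.3%) and 0 rose at 50 nM by edgeR, beside 1.70% lower and 1.55% higher over all genes tested. At an unadjusted p under 0.05, 8 were lower (27.6%) and 2 higher (6.90%), beside 8.17% and 7.44% of all genes. DESeq2 and limma-voom also called 3 lower and 0 higher. ZBTB7B, also known as ThPOK and needed for helper T cell fate, had 39.2, 41.1 and 42.3 CPM at 50 nM, against 52.7, 56.2 and 50.1 CPM in controls (-0.38 ± 0.07, edgeR adjusted p = 0.00845). ZBTB11, which is mutated in an inherited intellectual disability, had 23.5, 22.2 and 22.4 CPM, against 27.4, 30.01 and 30.7 CPM in controls (-0.37 ± 0.07, edgeR adjusted p = 0.00848). The treated libraries of both genes were tight and lay below every control. ZBTB9 had 6.28, 5.54 and 6.75 CPM, against 8.24, 9.64 and 8.10 CPM in controls (-0.48 ± 0.12, edgeR adjusted p = 0.0405), also without overlap. Of the 4 BTB/POZ genes of highest mean CPM, only ZBTB7B passed at 50 nM by edgeR. ZBTB4, which binds methylated DNA, averaged 65.1 ± 4.93 CPM at 50 nM and 69.3 ± 0.703 CPM in controls (SD, n = 3 each). ZBTB1, needed for lymphocyte development, averaged 56.96 ± 4.45 CPM and 63.1 ± 3.14 CPM, and ZBTB40 43.3 ± 1.70 CPM and 48.6 ± 3.61 CPM, in the same order. ZBTB33 (Kaiso), another reader of methylated DNA, had a log2 fold change of -0.17 ± 0.10, and ZBTB24, mutated in a syndrome of centromeric instability with lost DNA methylation, one of -0.13 ± 0.09; neither passed (edgeR adjusted p = 0.501 and 0.54).

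The members that rose included the abundant ZNF697, with 155, 155 and 161 CPM at 50 nM, against 123, 114 and 123 CPM in controls (0.39 ± 0.05, edgeR adjusted p = 0.000692). ZNF512B, a partner of the NuRD chromatin complex, had 59.8, 64.2 and 69.2 CPM at 50 nM, against 54.99, 50.4 and 47.2 CPM in controls (0.34 ± 0.07, edgeR adjusted p = 0.0209). ZNF202, a repressor of lipid metabolism genes, had 28.9, 29.4 and 27.5 CPM, against 22.9, 23.1 and 24.3 CPM in controls (0.29 ± 0.07, edgeR adjusted p = 0.0384). In each of these genes every treated library was above every control. ZNF26, a KRAB zinc finger gene, had 13.5, 14.8 and 11.5 CPM, against 10.2, 9.23 and 8.71 CPM in controls (0.51 ± 0.11, edgeR adjusted p = 0.0217), with treated libraries that spread more widely than the controls. ZNF425, the second highest estimate, did not pass by edgeR (0.47 ± 0.13, edgeR adjusted p = 0.0668), but did by DESeq2 (adjusted p = 0.0224). ZNF217, an oncogene product that works with the co-repressor CtBP and the member of highest CPM, likewise passed by DESeq2 (adjusted p = 0.00789) and not by edgeR. It had 198, 208 and 178 CPM at 50 nM, against 162, 167 and 168 CPM in controls (0.23 ± 0.06, edgeR adjusted p = 0.0542), although the groups did not overlap.

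**Figure D1:**
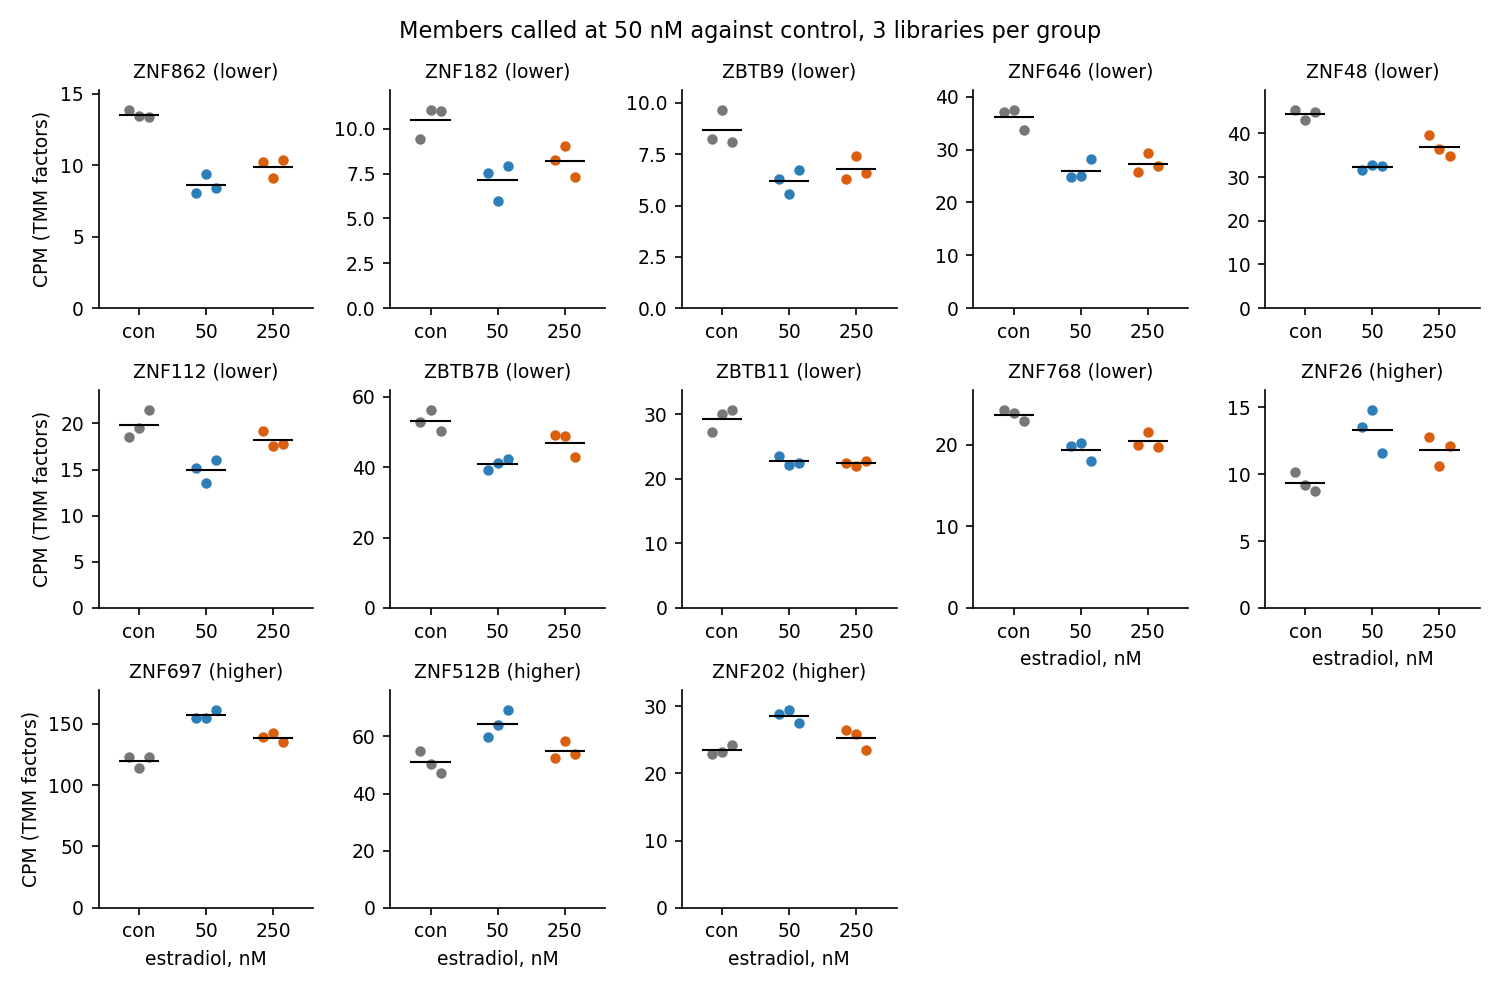
Level in CPM with TMM factors (vertical axes, each from 0) of the 13 members called at 50 nM against control, by group (con is control, 50 and 250 are nM estradiol); points are single libraries and lines are means of 3. The 9 genes marked lower have every 50 nM library below every control, and the 4 marked higher have every 50 nM library above every control.

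Of the 13 calls, those of ZNF862, ZNF48, ZNF646 and ZNF697 held whichever single library was left out, with an edgeR adjusted p of at most 0.0241. The other 9 each depended on at least 1 library. Without control replicate 1, 2 or 3, in turn, 3, 6 and 8 of the calls were lost (edgeR adjusted p up to 0.113, 0.137 and 0.122). Without 50 nM replicate 1, 2 or 3, in turn, 7, 7 and 1 were lost (up to 0.115, 0.172 and 0.104), and without a 250 nM library 3, 2 and 2 (up to 0.0719, 0.0618 and 0.0713). ZNF768 was lost in all 9 of these fits. The count of members lower was 4 without control replicate 3 and 4 without 50 nM replicate 1, and the count higher was 1 without control replicate 2 or 3 or 50 nM replicate 2, and 2 without 50 nM replicate 1. On log2(FPKM + 1) 1 member was higher and 10 were lower, and with DESeq2 9 were higher and 12 lower. The shares of all genes called in these fits are not given here, so these counts cannot be set against a background.

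At 250 nM, the comparison with control asks the same of the higher concentration. By edgeR 2 of the 143 members fell and 0 rose, which is 1.40% lower, beside 0.105% lower and 0.203% higher over all genes tested, or 0.308% in either direction. At an unadjusted p under 0.05, 25 members were lower and 6 higher. That is 17.5% and 4.20%, beside 4.71% and 3.97% over all genes. DESeq2 called 6 lower and 1 higher, limma-voom 2 and 0, and limma on log2(FPKM + 1) 0 and 0. Shares of all genes are not given for these other tools. Both comparisons share the same controls, so their values are set side by side and are not independent.

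ZBTB11 had 22.5, 22.004 and 22.8 CPM at 250 nM, against 27.4, 30.01 and 30.7 CPM in controls (log2 fold change -0.39 ± 0.07, edgeR adjusted p = 0.0245). ZNF646 had 25.8, 29.3 and 26.9 CPM, against 37.1, 37.4 and 33.7 CPM in controls (-0.40 ± 0.08, edgeR adjusted p = 0.04). Neither gene overlapped between the groups. The call of ZBTB11 was lost without control replicate 2 or 3 or any of the 250 nM libraries, and that of ZNF646 without any 1 of the 3 controls, any 1 of the 250 nM libraries or 50 nM replicate 1. Where a call was lost, its edgeR adjusted p reached 0.141 without control replicate 1, 0.136 without control replicate 2 and 0.16 without control replicate 3. It reached 0.214 without the first 250 nM library, 0.156 without the second and 0.246 without the third, and it was 0.0597 without 50 nM replicate 1.

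The other members called at 50 nM had values on the same side of 0 at 250 nM, and none of them passed by edgeR or limma-voom. DESeq2 called ZNF862, ZNF48 and ZNF697 among them (adjusted p = 0.00475, 0.0207 and 0.0119). ZNF862 averaged 9.90 ± 0.675 CPM at 250 nM and 13.5 ± 0.261 CPM in controls (-0.45 ± 0.10, edgeR adjusted p = 0.075). ZNF48 averaged 36.98 ± 2.50 CPM at 250 nM and 44.4 ± 1.12 CPM in controls (-0.26 ± 0.07, edgeR adjusted p = 0.149). Log2 fold changes at 250 nM were -0.36 ± 0.12 for ZNF182, -0.36 ± 0.12 for ZBTB9, -0.21 ± 0.07 for ZNF768, -0.18 ± 0.07 for ZBTB7B and -0.13 ± 0.09 for ZNF112. For the genes that rose at 50 nM they were 0.34 ± 0.11 for ZNF26, 0.21 ± 0.05 for ZNF697, 0.11 ± 0.07 for ZNF512B and 0.11 ± 0.07 for ZNF202. The lowest estimate of all members at 250 nM belonged to ZBTB43, chosen after its values were seen, with 7.54, 8.18 and 8.73 CPM, against 11.5, 12.4 and 10.3 CPM in controls (-0.48 ± 0.13, edgeR adjusted p = 0.178). DESeq2 called ZBTB43 (adjusted p = 0.0472) and ZBTB1 (adjusted p = 0.0293) lower at 250 nM.

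**Figure D2:**
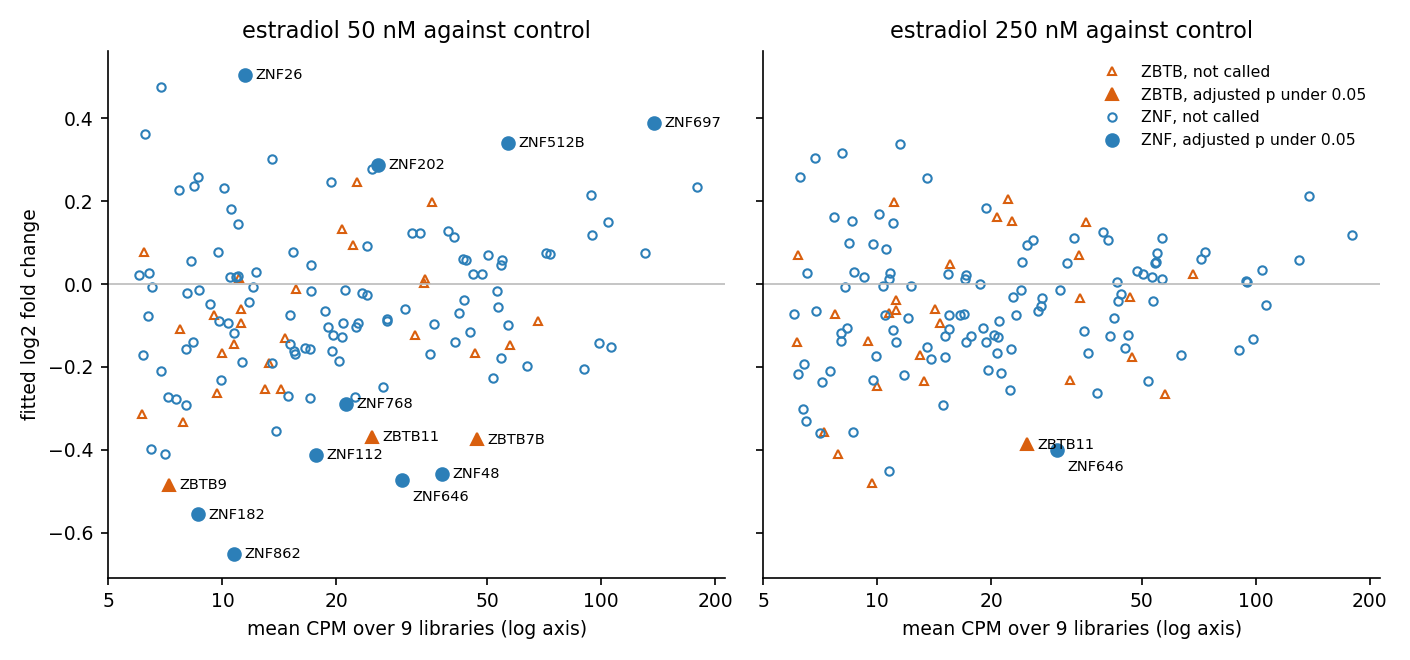
Fitted log2 fold change (vertical axis) of the 143 members against their mean CPM over 9 libraries (horizontal log axis), for 50 nM (left) and 250 nM (right) against control; triangles are ZBTB and circles ZNF genes, filled where the edgeR adjusted p was under 0.05. Filled symbols number 13 on the left and 2 on the right, and more members lie below 0 than above it in both panels, 91 and 89 of 143.

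The comparison of 250 nM with 50 nM estradiol asks whether the concentrations differed from each other. No member passed by edgeR, DESeq2, limma-voom or limma on FPKM, while 0.187% of all genes tested were higher and 0.138% lower by edgeR, or 0.325% in either direction. At an unadjusted p under 0.05, 7 members were higher and 6 lower, or 4.90% and 4.20%, beside 3.01% and 2.67% over all genes. ZNF112 had 19.2, 17.5 and 17.8 CPM at 250 nM, against 15.1, 13.6 and 16.001 CPM at 50 nM. Its log2 fold change of 0.29 ± 0.09 had an unadjusted 95% interval of 0.10 to 0.47 (edgeR adjusted p = 0.364). ZNF697 had 139, 142 and 135 CPM at 250 nM, against 155, 155 and 161 CPM at 50 nM (-0.18 ± 0.05, interval -0.29 to -0.06, edgeR adjusted p = 0.366). In both genes the estradiol groups did not overlap, with ZNF112 higher and ZNF697 lower at 250 nM. For ZBTB11 the interval was -0.17 to 0.13 and for ZNF646 -0.09 to 0.24. A miss of the threshold does not show that the concentrations acted alike.

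By their median, the zinc finger genes were lower with estradiol than other genes of equal abundance, by a small margin. At 50 nM the median log2 fold change of the 143 members was -0.08, beside -0.02 for other genes weighted to the same classes of mean CPM, a difference of -0.06 or 3.94%. Over all genes tested the median was 0.00. At 250 nM the members' median was -0.06, beside -0.01 for the other genes, a difference of -0.05 or 3.47%. Between 250 nM and 50 nM the difference was 0.00. Values below 0 were found for 91 members at 50 nM (63.6%) and 89 at 250 nM (62.2%), beside 53.5% and 53.7% of other genes of equal abundance and 50.6% and 51.8% of all genes tested. For 250 nM against 50 nM, 69 members (48.3%) were below 0, beside 51.2% of all genes. These values describe the class and were not tested as a set.

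Groups that did not overlap, in the downward direction, made up a larger share of members than of all genes at both concentrations. At 50 nM all 3 treated libraries lay below all 3 controls for 32 members (22.4%), beside 10.1% of all genes tested, and above them for 16 (11.2%), beside 8.88%. At 250 nM the treated libraries lay below for 31 members (21.7%), beside 7.76% of all genes, and above for 9 (6.29%), beside 7.75%. Between 250 nM and 50 nM the shares were near those of all genes, with 9 members lower (6.29%, beside 5.57%) and 8 higher (5.59%, beside 5.94%).

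**Figure D3:**
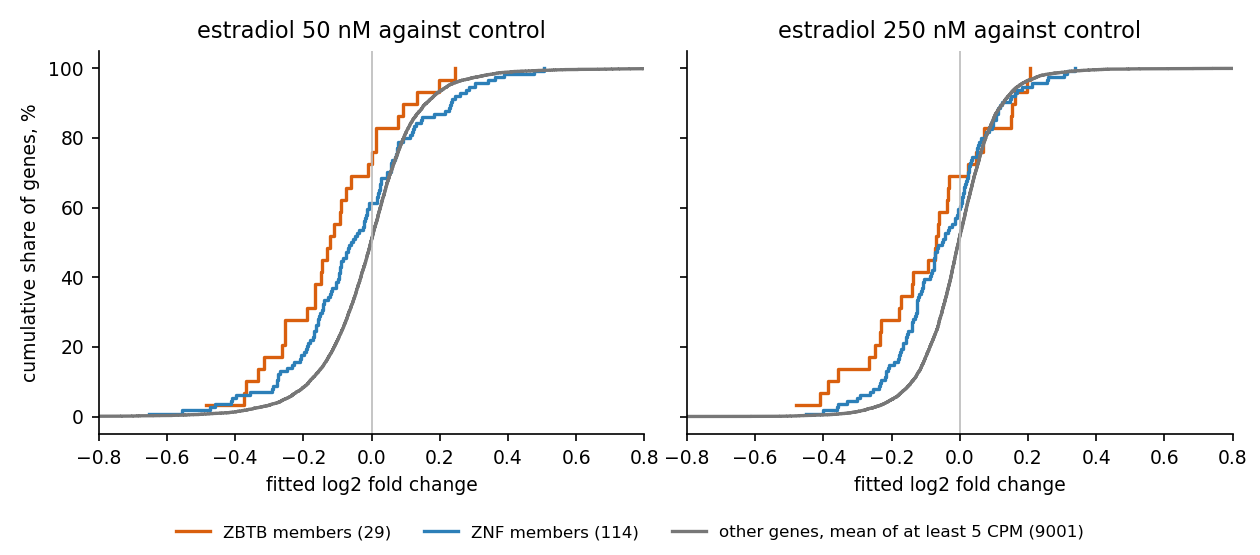
Cumulative share of genes (vertical axis, percent) by fitted log2 fold change (horizontal axis) at 50 nM (left) and 250 nM (right) against control, for 29 ZBTB members, 114 ZNF members and 9001 other genes with a mean of at least 5 CPM. Left of 0 the member curves lie above the curve of other genes for most of their course, and 63.6% and 62.2% of the 143 members lie below 0.

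The shift was of the size of the spread between libraries. For each library, the median over members of the log2 level relative to each gene's own mean was set against that of other genes of equal abundance. It was -0.02, 0.02 and -0.03 in the 50 nM libraries and -0.02, 0.01 and -0.03 in the 250 nM libraries, against 0.00, 0.07 and 0.03 in the controls. The estradiol libraries thus overlapped with the controls, and control replicate 2 stood highest. The library numbered 2 was the highest of each group in this measure and the lowest in its share of ribosomal protein counts, 1.32% at 50 nM, 1.34% at 250 nM and 1.28% in controls. The part of that share in the result was not tested. Without control replicate 2 the class difference was -0.03 at 50 nM and -0.03 at 250 nM, without 250 nM replicate 3 it was -0.03 at 250 nM, and without all 3 libraries numbered 2, a choice made after seeing the data, it was -0.04 at both concentrations. In that last fit 2 members were called lower and 1 higher at 50 nM, and 0 and 0 at 250 nM. Summed over members, the level was 4084 ± 110.3 CPM at 50 nM and 4044 ± 49.5 CPM at 250 nM, against 4132 ± 106.8 CPM in controls (TMM factors, SD, n = 3 each), with overlapping libraries.

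The 29 ZBTB members differed from other genes of equal abundance by -0.10 at 50 nM and -0.05 at 250 nM, and the 114 ZNF members by -0.04 at each. By library, the ZBTB measure was -0.03, -0.02 and -0.07 at 50 nM, against 0.04, 0.13 and 0.02 in controls. At 250 nM it was 0.00, 0.01 and -0.06. For ZBTB genes, every estradiol library was therefore below every control, which was not so for ZNF genes. Whether the families differ from each other was not tested.

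**Figure D4:**
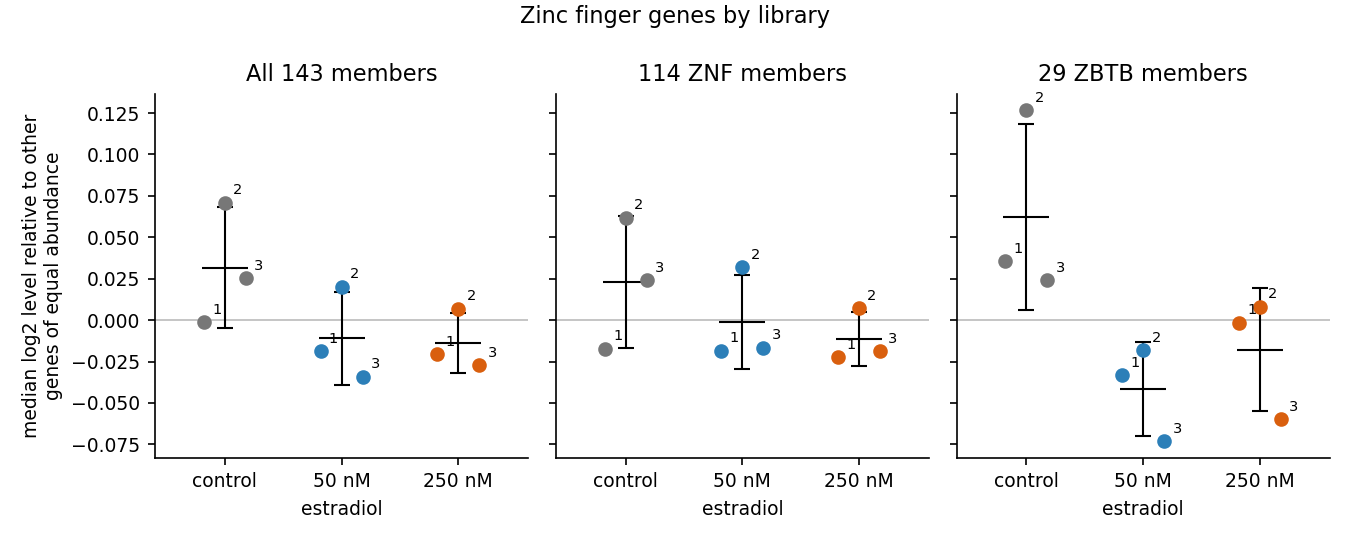
Median log2 level of the members in each library relative to each gene's mean over 9 libraries, minus the same for other genes of equal abundance (vertical axis), by group in order of estradiol concentration; numbers are replicate numbers, and bars are mean ± SD of 3 libraries. Estradiol and control libraries overlap for all 143 members and for ZNF genes, and do not for ZBTB genes.

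Members were split by mean level, and their medians lay further below 0 in the lower classes. At 50 nM the median log2 fold change was -0.09 for the 33 members with a mean of 5 to 10 CPM, -0.10 for the 44 at 10 to 20 CPM, -0.07 for the 32 at 20 to 40 CPM and 0.00 for the 34 at 40 CPM and over. Other genes of these classes had -0.03, -0.03, -0.02 and 0.02. At 250 nM the members' medians were -0.12, -0.07, -0.04 and 0.01, beside -0.02, -0.02, -0.02 and 0.01 for the others. The 49 genes of the same names that lay under the minimum and could be tested had medians of -0.17 at 50 nM and -0.16 at 250 nM. Their values at 50 nM ran from -1.21 to 0.86. No median of other genes of equal abundance is given for them, so they cannot be set beside the classes above.

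**Figure D5:**
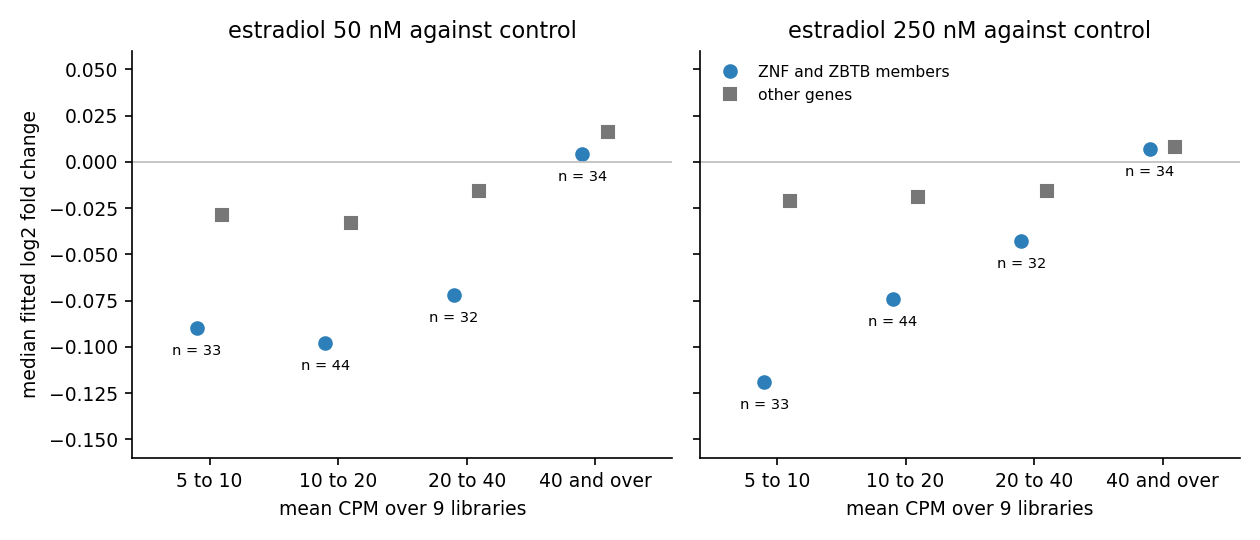
Median fitted log2 fold change (vertical axis) by class of mean CPM (horizontal axis) at 50 nM (left) and 250 nM (right) against control; circles are ZNF and ZBTB members with their number, squares are other genes of the class. Members lie below other genes in the 3 lower classes, and close to them at 40 CPM and over, with differences of -0.01 and 0.00.

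Length and neighbourhood were looked at because the rule used neither. The length implied by the deposited counts and FPKM had a median of 2395 bases in members and 2325 bases in other genes of at least 5 CPM. All such genes were cut by length into 3 equal parts. The 25 members among the shortest had medians of -0.09 at 50 nM and -0.11 at 250 nM. The 64 in the middle part had -0.09 and -0.07, and the 54 among the longest -0.02 and -0.02. In that order, other genes of equal abundance had -0.029, -0.02 and -0.007 at 50 nM. At 250 nM they had -0.02, -0.014 and -0.006. These other genes were matched by mean CPM and not by length. Of the 135 members matched by symbol to the RefSeq gene table, 42 had another gene of a zinc finger name family among the 2 genes on either side, and 93 did not. The medians were -0.09 at 50 nM and -0.09 at 250 nM for the first, and -0.06 and -0.03 for the second. Other genes of equal abundance had -0.021 and -0.015 beside the first, and -0.013 and -0.01 beside the second.

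ZNF646 fell at both concentrations, while its neighbour ZNF668 had log2 fold changes of -0.01 ± 0.10 at 50 nM and 0.03 ± 0.10 at 250 nM, neither past the threshold (adjusted p = 0.975 and 0.978, edgeR). ZNF26 rose at 50 nM, while ZNF84 beside it had 14.002 ± 0.436 CPM, against 16.9 ± 1.90 CPM in controls (-0.27 ± 0.11, edgeR adjusted p = 0.219). Of other neighbouring members, some lay on the same side of 0 at 50 nM, such as ZBTB43 (-0.262 ± 0.129) and ZBTB34 (-0.123 ± 0.066). Others lay on opposite sides, such as ZNF35 (-0.155 ± 0.078) and ZNF197 (0.182 ± 0.126). None of these examples passed by edgeR at 50 nM. All neighbours named here were chosen after their values were seen, and whether neighbours move together was not tested. Zinc finger genes arose by duplication, so near-identical copies may share counts in ways that cannot be told apart here.

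By known role, transcription factors and cofactors (20 members) had a median log2 fold change of 0.05 at 50 nM and 0.02 at 250 nM, above the class. Other genes of equal abundance had medians of -0.003 and -0.004. ZNF202 rose at 50 nM by edgeR (5.0%, beside 1.55% of all genes) and 0 fell, while DESeq2 called 3 higher. At an unadjusted edgeR p under 0.05, 4 of the 20 were higher and 0 lower, beside 7.44% and 8.17% of all genes. At 250 nM 0 passed by edgeR, DESeq2 or limma-voom. With an unadjusted edgeR p under 0.05, 1 was higher (5.0%) and 2 lower (10.0%), beside 3.97% and 4.71% of all genes. ZNF462, mutated in Weiss-Kruszka syndrome, averaged 111 ± 8.07 CPM at 50 nM and 99.8 ± 8.75 CPM in controls. ZNF503 had 102, 105 and 104 CPM at 50 nM, against 89.1, 93.2 and 85.4 CPM in controls (0.21 ± 0.06), and passed by DESeq2 (adjusted p = 0.0214) but not by edgeR (adjusted p = 0.0815). ZNF609 had a log2 fold change of 0.07 ± 0.07. Partners of chromatin complexes (10 members, some of them also in the first list) had medians of 0.04 and -0.04, with 0 members past the edgeR threshold at either concentration. Beside these medians, other genes of equal abundance had 0.003 and 0.0. At an unadjusted edgeR p under 0.05, 2 of the 10 partners were higher and 2 lower at 50 nM, beside 7.44% and 8.17% of all genes. At 250 nM 0 of the 10 were higher and 1 was lower, beside 3.97% and 4.71% of all genes. DESeq2 called 1 of these partners higher at 50 nM. Among them ZNF532, which binds the chromatin reader ZMYND8, had 0.12 ± 0.07 at 50 nM, ZNF827, which brings NuRD to telomeres, 0.08 ± 0.08, and ZNF318 -0.21 ± 0.07.

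Members that act on RNA, ribosomes or the spindle (11 genes) had medians of -0.10 at 50 nM and -0.05 at 250 nM, and 9 and 7 of them were below 0, but 0 passed by edgeR, DESeq2 or limma-voom at either concentration. At an unadjusted edgeR p under 0.05, 3 were lower at 50 nM (27.3%, beside 8.17% of all genes). At 250 nM 1 was lower (9.09%, beside 4.71% of all genes). ZNF207 had 96.6, 90.5 and 97.5 CPM at 50 nM, against 98.1, 112 and 104 CPM in controls (-0.14 ± 0.06, edgeR adjusted p = 0.258). Its treated libraries lay below all controls. ZNF638, which recruits the HUSH complex to unintegrated retroviral DNA, had 48.7, 51.5 and 47.9 CPM at 50 nM, against 49.5, 61.3 and 56.9 CPM in controls (-0.18 ± 0.07, edgeR adjusted p = 0.243), with overlap. At 50 nM the RNA-binding protein gene ZNF106 had -0.15 ± 0.07 and ZNF326 0.08 ± 0.06. The 3 genes tied to DNA methylation, ZBTB4, ZBTB33 and ZBTB24, had a median of -0.13 at 50 nM and -0.09 at 250 nM. By the same tools 0 of them passed. At an unadjusted edgeR p under 0.05, 0 were called at 50 nM and 1 was lower at 250 nM (33.3%, beside 4.71% of all genes).

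The partners of these proteins were looked at in lists chosen for the purpose. Of 18 KRAB and HUSH co-repressor genes, 0 passed at either concentration by edgeR. Their medians were -0.06 at 50 nM and -0.05 at 250 nM, and 15 and 14 of them were below 0 (83.3% and 77.8%). In that order, other genes of equal abundance had medians of 0.011 and 0.004, with 45.3% and 47.5% below 0. The differences of -0.074 and -0.055 were as large as those of the 143 members, -0.058 and -0.051. DESeq2 and limma-voom also called 0 of the 18. At an unadjusted edgeR p under 0.05, 4 were lower at 50 nM (22.2%, beside 8.17% of all genes) and 2 at 250 nM (11.1%, beside 4.71%). TRIM28, the co-repressor bound by KRAB domains, averaged 209 ± 19.6 CPM at 50 nM and 203 ± 5.82 CPM at 250 nM, against 200.2 ± 15.3 CPM in controls. SETDB1 averaged 98.7 ± 2.93 CPM at 50 nM and 96.03 ± 3.18 CPM at 250 nM, against 103 ± 1.59 CPM in controls. Both were chosen after their values were seen. Of 13 BTB co-repressor and partner genes, BCORL1 and MYC fell at 50 nM by edgeR (15.4%, beside 1.70% of all genes) and 0 rose. The median was -0.05, beside 0.01 for other genes of equal abundance. With an unadjusted edgeR p under 0.05, 1 was higher (7.69%) and 3 lower (23.1%), beside 7.44% and 8.17% of all genes. DESeq2 also called BCOR higher at 50 nM (adjusted p = 0.0323), and limma-voom called 2 lower and 0 higher. BCORL1 averaged 7.23 ± 0.208 CPM at 50 nM and 11.8 ± 1.75 CPM in controls (-0.71 ± 0.12, edgeR adjusted p = 0.00385). MYC, which binds the BTB/POZ protein ZBTB17, averaged 73.4 ± 1.67 CPM at 50 nM and 92.7 ± 7.62 CPM in controls (-0.34 ± 0.07, edgeR adjusted p = 0.0108). At 250 nM 0 of the 13 passed against control by edgeR, DESeq2 or limma-voom, nor did any at an unadjusted p under 0.05, with a median of -0.04, and MYC was higher at 250 nM than at 50 nM (0.44 ± 0.07, edgeR adjusted p = 0.00567). Between 250 nM and 50 nM DESeq2 called 2 of the 13 higher, MYC and BCORL1, and BCOR lower.

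Other families are given beside the class, and whether they differ from it was not tested. The 56 genes of other C2H2 families with a mean of at least 5 CPM (such as KLF, EGR, PRDM and ZKSCAN) had a median of 0.00 at 50 nM and -0.04 at 250 nM, and 3 rose (5.36%) and 4 fell (7.14%) at 50 nM by edgeR, beside 1.55% and 1.70% of all genes tested. DESeq2 called 4 higher and 6 lower at 50 nM, and limma-voom 3 and 2. At 250 nM 1 of the 56 rose by edgeR (1.79%, beside 0.203% of all genes), KLF10 (0.40 ± 0.07, edgeR adjusted p = 0.0187), which was chosen after its values were seen. None fell by edgeR, and DESeq2 called 3 higher and 0 lower. With an unadjusted edgeR p under 0.05, 6 were higher (10.7%) and 7 lower (12.5%), beside 3.97% and 4.71% of all genes. The 76 genes of DNA-binding families without C2H2 fingers (such as FOX, HOX and SMAD) had medians of 0.00 and 0.03, with 3 higher and 3 lower at 50 nM by edgeR (3.95% each, beside 1.55% and 1.70% of all genes). DESeq2 called 10 higher and 4 lower at 50 nM. There, 15 were higher (19.7%) and 11 lower (14.5%) at an unadjusted edgeR p under 0.05, beside 7.44% and 8.17% of all genes. At 250 nM 0 passed by edgeR or limma-voom and DESeq2 called 2 higher and 2 lower. The unadjusted edgeR p at 250 nM was under 0.05 for 10 higher (13.2%) and 5 lower (6.58%), beside 3.97% and 4.71% of all genes. The 30 ribosomal protein genes had medians of 0.03 and 0.00, and none passed by edgeR, DESeq2 or limma-voom or had an unadjusted p under 0.05.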

How the data were processed

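RNA of 9 libraries of the HA-VSMC line was sequenced by the authors, and the labels name a small RNA kit for these mRNA libraries. The deposited tables hold estimated counts and FPKM per gene. Trim Galore, TopHat2 2.1.1, Cufflinks and Cuffdiff were used, per the submitters' processing notes. The counting tool, build, annotation and use of strand were not given in the sources used here. Counts as deposited hold no decimals and pile up at 4, 8 and 12 (2440 values of 4 against 880 of 3), so totals correspond to about 13679602 to 18068616 fragments, and no rounding was needed. Column names gave each sample's group and number, and there were 0 columns from other samples.

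Genes were filtered with filterByExpr (minimum count 10) and fitted together over the 9 libraries with TMM factors (edgeR 4.0.16, quasi-likelihood test; R 4.3.3). Benjamini-Hochberg adjustment ran over all genes tested. Shares of all genes are from edgeR, and counts by other tools stand without such a share. The biological coefficient of variation was 8.92%. Medians of other genes were weighted to the members' classes of mean CPM. The RefSeq gene table (mOryCun1.1) was used only for names and neighbours. Alternatives were DESeq2 1.42.0, limma 3.58.1 (voom, and log2(FPKM + 1) or log2(FPKM + 0.1) of the deposited FPKM), other factors and filters, a replicate block and leaving out each library. The method was tested on simulated data.

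Members and lists were chosen with earlier results of these data known. Named genes are those that passed, the 3 lowest and highest log2 fold changes at 50 nM, the members of highest CPM, the most abundant of each role list and those next to the minimum; the text marks other genes, apart from ZBTB8OS and the members of highest FPKM, which were also picked with values known. Partner genes named by rule are those that passed. ZFP36 genes, which carry another kind of finger, were left out of the C2H2 list.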

Additional observations from a re-analysis of the deposited data

How the results depend on the processing

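No result reversed its direction under the alternatives run. At 50 nM, 4 members were higher and 9 lower in the fit reported. The number higher was 9 with DESeq2, 2 with only the compared groups, 1 with log2(FPKM + 1), 1 with log2(FPKM + 0.1) and 1 with log2(FPKM + 1) and no filter. Leaving out each library in turn gave 1 to 5 higher and 4 to 8 lower. Without all 3 libraries numbered 2, chosen after seeing the data, 1 was higher and 2 were lower. The class difference at 50 nM ranged from -0.077 to -0.029 when each library was left out. At 250 nM, 2 members were lower and 0 higher. DESeq2 gave 6 lower and 1 higher, the 3 fits on FPKM 0, 0 and 0 lower, the fit without the libraries numbered 2 0 lower, and leaving out each library 0 to 2 lower. The cause of these differences was not tested. Fits that left libraries out also held fewer libraries. With the replicate number as a block, 5 members were higher and 10 lower at 50 nM and 2 were lower at 250 nM. Libraries of the same number correlated at -0.032 to 0.036 in their deviations from the group means, so no pairing by number was seen over all genes tested. This cannot exclude a factor shared by number for a few genes. The libraries numbered 2 had the highest class measure and the lowest ribosomal protein share of each group, and the reason was not tested. Dividing counts by 4, added after seeing the data, gave 5 higher and 9 lower at 50 nM. The class difference is of the size of the spread between libraries, and 3 libraries a group limit what can be told apart.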
